A study of Homo sapiens with 12 samples.

Results

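NLRP1, CARD8, DPP8, DPP9, PYCARD, CASP1, CASP4, GSDMD, GSDME and IL18 encode the parts of the inflammasomes built by the sensors NLRP1 and CARD8. These 10 genes were taken by name from the 58735 genes of the deposited count table. Each symbol was found once, all 10 genes had at least 1 count, and 9 passed the filter on low counts and were tested. CASP1 did not pass it.

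The study sequenced RNA of K562, a human erythroleukemia line with the BCR-ABL1 fusion kinase in which hemin induces hemoglobin. The 12 libraries were 3 biological replicates of each of 4 groups of this 1 line. Mock DMSO cells received the vehicle without hemin, mock nilotinib cells received 0.1 μM nilotinib, a BCR-ABL1 inhibitor, without hemin, hemin DMSO cells received the vehicle and then 50 μM hemin for 24 h, and hemin nilotinib cells received both agents at these doses. Every group carried the DMSO vehicle. The study's methods give the vehicle or nilotinib for 24 h before hemin, and the mock groups are those at 0 h of hemin. A comparison of hemin with mock thus cannot be told apart from a difference in the time of collection. The same holds for the time since nilotinib or vehicle was added.

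Libraries held 33457078 to 50506990 counts, with a median of 37019327, and pairs of replicates correlated at r = 0.969 to 0.992 across genes on the log2 scale. Levels are given as CPM, the counts per 1000000 of the library total after scaling by TMM (trimmed mean of M values). A count of 0 allows a level of up to 0.0540 to 0.0957 CPM in a library, as 3 counts of its scaled total. This limit covers counting error only. All 8 markers chosen for the K562 line (GATA1, KLF1, TAL1 and fetal globin genes among them) were detected, with summed levels of 1303 to 2156 CPM in mock DMSO, 6134 to 7359 CPM in mock nilotinib, 989 to 1168 CPM in hemin DMSO and 4076 to 6991 CPM in hemin nilotinib. With nilotinib 7 of the 8 rose with hemin and 6 without it, and with hemin in DMSO cells 2 rose and 3 fell. Of all 20821 genes tested, 32.4% rose with nilotinib in hemin and 20.7% without hemin, at an adjusted p under 0.05. With hemin in DMSO cells 25.7% of all genes rose and 27.8% fell. Of the 6 monocyte or macrophage markers, CD163 had 3 counts or fewer in every library, as did CD2 and MS4A1 of the 6 lymphocyte markers and KRT5 and KRT14 of the 4 epithelial markers. The rest had more counts. In mock DMSO the 3 lists summed to 26.7 to 38.7 CPM, 8.80 to 19.2 CPM and 61.3 to 65.3 CPM, in this order.

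Inflammasomes are cytosolic complexes that sense danger and activate the protease caspase-1. NLRP1 and CARD8 are held inactive by the dipeptidyl peptidases DPP8 and DPP9. When released, the C-terminal fragment of NLRP1 gathers the adaptor ASC, encoded by PYCARD, to recruit caspase-1, whereas CARD8 binds caspase-1 without this adaptor. Caspase-1 then cleaves the cytokine precursor pro-IL-18 and gasdermin D, whose fragment opens pores in the plasma membrane, while caspase-4 cleaves gasdermin D in response to bacterial lipopolysaccharide. Gasdermin E forms pores of the same kind. NLRP1 also senses ribotoxic stress through the kinase ZAK and p38, and in blood-forming progenitors caspase-1 can cleave the erythroid factor GATA1. The comparisons below address how the RNA of these components differed with nilotinib, with hemin and with both.

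Levels were compared between genes per kilobase of gene length, as the CPM divided by the length in kilobases (RPKM). NLRP1 had the highest level of the 10 genes in every group, with a mean of 11.2 ± 0.820 RPKM (SD, n = 3) in mock DMSO, 17.5 ± 2.49 RPKM in mock nilotinib, 17.9 ± 4.56 RPKM in hemin DMSO and 28.95 ± 13.3 RPKM in hemin nilotinib. DPP9 was the next in every group, at means of 6.06 to 8.32 RPKM.

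In mock DMSO, DPP8 (5.12 ± 0.00731 RPKM), PYCARD (4.85 ± 0.916 RPKM) and IL18 (4.70 ± 0.769 RPKM) followed and did not differ from each other beyond their SD. CARD8 lay below them at 2.48 ± 0.216 RPKM. GSDMD (1.73 ± 0.338 RPKM) and GSDME (1.46 ± 0.261 RPKM) had overlapping SD.

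Both inflammatory caspases were near 0, taken as a mean under 1 CPM in all 4 groups. CASP4 had mean levels of 0.0116 to 0.0462 RPKM, and CASP1 had 0 to 0.00516 RPKM. CARD8 was the sixth in mock DMSO and the fourth in hemin nilotinib, while PYCARD was the fourth in mock DMSO and the seventh in both nilotinib groups. The deposited FPKM gave the same rank to every gene in every group.

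**Figure D1:**
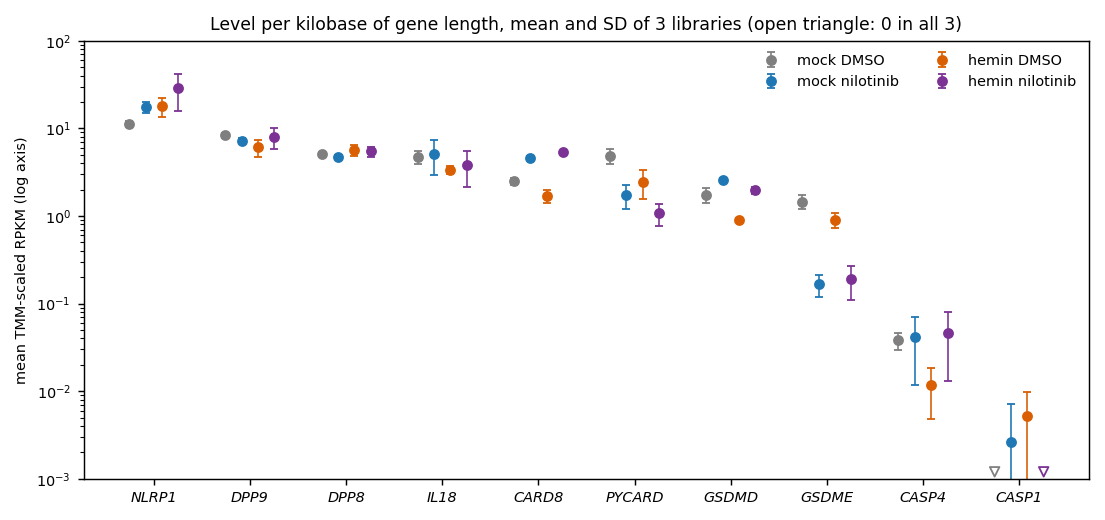
Mean level of the 10 genes per kilobase of gene length in the 4 groups, as TMM-scaled RPKM on a log axis, with bars for the SD of 3 libraries and open triangles where all 3 libraries had 0 counts. NLRP1 stands highest in each group, CASP4 lies between 0.0116 and 0.0462 RPKM, and CASP1 is at or next to 0.

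With nilotinib, NLRP1, CARD8 and GSDMD rose and PYCARD and GSDME fell, both with and without hemin, in the edgeR test. Without hemin, the calls of NLRP1 and GSDMD were lost under 10 and 4 of 16 alternatives. With hemin present, 4 of the 9 tested genes rose with nilotinib (NLRP1, CARD8, CASP4 and GSDMD) and 2 fell (PYCARD and GSDME), where 32.4% of all 20821 genes tested rose and 31.8% fell at an adjusted p under 0.05. Without hemin, 3 rose (NLRP1, CARD8 and GSDMD) and 2 fell (PYCARD and GSDME), where 20.7% of all genes rose and 21.8% fell. Since those shares of all genes are large, the counts alone do not set the 9 genes apart.

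Hemin without nilotinib raised 1 gene (NLRP1) and lowered 5 (CARD8, DPP9, PYCARD, GSDMD and GSDME), where 25.7% of all genes rose and 27.8% fell. For hemin in nilotinib-treated cells, 0 of the 9 passed the edgeR quasi-likelihood test, where 3.52% of all genes rose and 2.28% fell. In that comparison 3 of the 9 genes had an unadjusted p under 0.05, and DESeq2 and limma-trend on the deposited FPKM also called 0. The log2 fold change of NLRP1 was 0.73 there, against 0.67 without nilotinib, where it passed. With every gene that had a count in the fit, NLRP1 passed there too (0.72, edgeR adjusted p = 0.000276). The 0 calls thus do not show that hemin left these genes unchanged.

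The difference between the effects of nilotinib with and without hemin, the interaction, passed for CARD8 alone of the 9 genes, as a rise, where 17.1% of all genes had a positive interaction and 13.0% a negative one. The median log2 fold change of the 9 genes was 0.39 for nilotinib with hemin, against 0.02 over all genes tested. It was 0.10 against 0.00394 for nilotinib without hemin, and -0.56 against -0.05 for hemin without nilotinib. For hemin with nilotinib it was 0.16 against 0.03, and for the interaction 0.55 against 0.06. The medians for nilotinib without hemin and for hemin with nilotinib were the values of CASP4, a gene near 0 (edgeR adjusted p = 0.904 and 0.905). The medians were not tested and do not show a shift of the 9 genes. In bulk samples such as these, fewer cells that make an RNA and less of it per cell cannot be told apart.

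**Figure D2:**
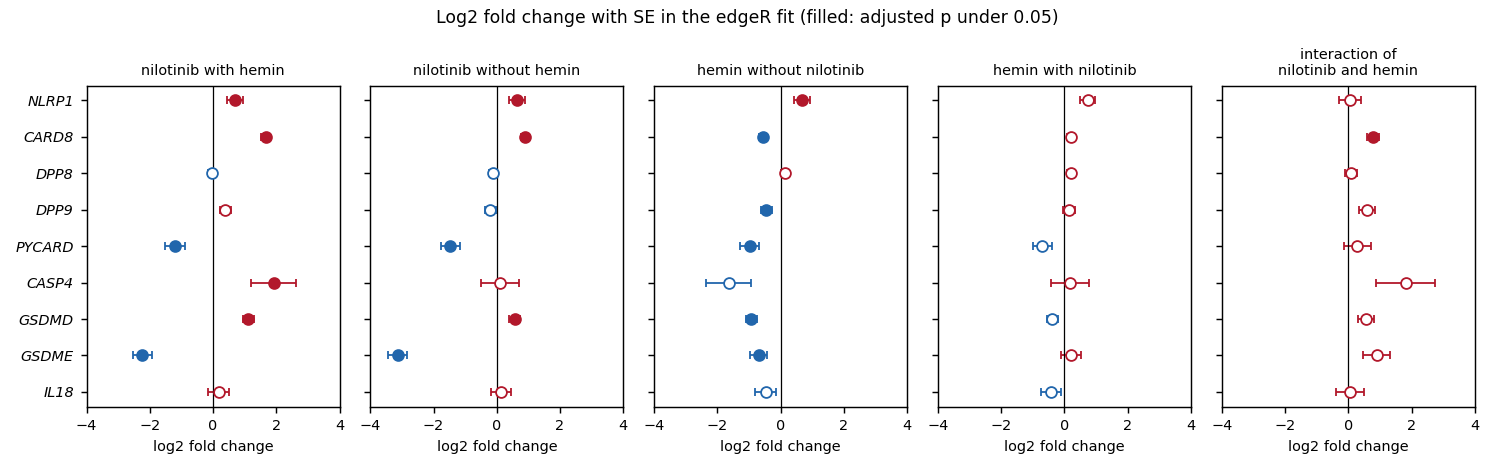
Log2 fold change and SE of the 9 tested genes in the 5 comparisons of the edgeR fit, with filled points for an adjusted p under 0.05 and open points otherwise. GSDME has the lowest value, -3.14 for nilotinib without hemin, and CARD8 is the filled point of the interaction.

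NLRP1 (ENSG00000091592) lies on the minus strand of chr17:5499427-5619424 in GRCh38 and encodes the sensor itself. Its level was 156, 136 and 140.4 CPM in the mock DMSO libraries, 206, 205 and 261 CPM in mock nilotinib, 284, 168 and 236 CPM in hemin DMSO, and 236, 314 and 562.4 CPM in hemin nilotinib. Every library given nilotinib or hemin was thus above every mock DMSO library, and replicate 3 of hemin nilotinib stood far above the rest. Hemin DMSO and hemin nilotinib overlapped.

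NLRP1 rose with nilotinib by a log2 fold change of 0.64 ± 0.249 (SE, 1.55-fold) without hemin (edgeR adjusted p = 0.0493) and of 0.69 ± 0.249 (1.62-fold) with hemin (edgeR adjusted p = 0.0225). Hemin alone raised it by 0.67 ± 0.249 on the log2 scale (1.59-fold, edgeR adjusted p = 0.0318). In nilotinib-treated cells the value for hemin was 0.73 ± 0.249 and did not pass (edgeR adjusted p = 0.0971). The interaction was 0.06 ± 0.351 (edgeR adjusted p = 0.921).

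All 3 calls of NLRP1 were close to the threshold. The call with hemin was lost without replicate 3 of hemin nilotinib (0.28, edgeR adjusted p = 0.223) or replicate 2 of hemin DMSO (0.51, edgeR adjusted p = 0.108), and the call without hemin was lost without any 1 of its 6 libraries (0.48 to 0.69, edgeR adjusted p = 0.0642 to 0.179). With limma-trend on the deposited FPKM neither passed (0.56 to 0.63, adjusted p = 0.0667 to 0.0881). The call with hemin was also lost in the 6 libraries of its comparison alone (0.72, edgeR adjusted p = 0.0517). The call without hemin was also lost with library totals as the scaling (0.60, edgeR adjusted p = 0.0855). A filter of 10 counts in each of the libraries lost it too (0.64, edgeR adjusted p = 0.0553). For hemin alone, the call was lost without any 1 of the 6 libraries but replicate 2 of hemin DMSO (0.50 to 0.66, edgeR adjusted p = 0.0671 to 0.138). It was also lost with library totals as the scaling (0.44, edgeR adjusted p = 0.182) and with limma-trend on log2 of the FPKM plus 1 (0.63, adjusted p = 0.0597). Without replicate 1 of hemin nilotinib, the value of hemin with nilotinib passed (0.97, edgeR adjusted p = 0.0056).

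CARD8 (ENSG00000105483), the sensor that recruits caspase-1 directly, lies on the minus strand of chr19:48180770-48255946. Its level was 34.9, 29.4 and 31.7 CPM in mock DMSO, 63.0, 57.5 and 57.3 CPM in mock nilotinib, 25.2, 17.7 and 22.2 CPM in hemin DMSO, and 70.6, 65.1 and 70.3 CPM in hemin nilotinib. The 4 groups did not overlap, with the hemin DMSO libraries lowest and the hemin nilotinib libraries highest.

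Nilotinib raised CARD8 by 0.89 ± 0.136 on the log2 scale without hemin (1.85-fold, edgeR adjusted p = 6.6e-05) and by 1.66 ± 0.139 with hemin (3.16-fold, edgeR adjusted p = 4.8e-08). Hemin lowered it in DMSO cells, where it fell by 0.56 ± 0.137 on the log2 scale (1.47-fold lower, edgeR adjusted p = 0.00262). In nilotinib-treated cells the value for hemin was 0.21 ± 0.135 (edgeR adjusted p = 0.394). The interaction was 0.77 ± 0.192 (edgeR adjusted p = 0.00697), so that the rise with nilotinib was 1.71-fold larger in hemin than in mock cells. These calls held under every alternative tried, with each library left out included.

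The promoter of CARD8 is shown because it is the member whose response to nilotinib differed with hemin, and because it can be set against those of PYCARD and GSDME, which went the other way with nilotinib. RefSeq (build GRCh38.p14) gives 5 starts for CARD8, and the window below is that of the start at the end of the annotated gene, chr19:48255897-48256196, minus strand, read 5′ to 3′. Capitals mark its 1 match to the ETS motif CCGGAAG and its 1 match to the STAT motif TTCNNNGAA, both strands searched. The windows of CARD8 starts that lie 6099 to 6313 bases inside the gene held no match to either.

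CARD8: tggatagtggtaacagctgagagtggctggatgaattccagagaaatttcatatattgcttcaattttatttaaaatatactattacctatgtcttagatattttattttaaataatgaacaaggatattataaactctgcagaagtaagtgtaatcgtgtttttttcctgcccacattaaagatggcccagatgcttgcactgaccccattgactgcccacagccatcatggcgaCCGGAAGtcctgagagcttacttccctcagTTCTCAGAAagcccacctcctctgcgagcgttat

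Its GC content was 40.0%, below the lower quartile of 47.0% over 35116 RefSeq promoter windows of this length, whose median was 58.7%. It held 5 CpG, against a median of 14. Of all these windows, 10.3% held the ETS motif and 7.66% the STAT motif. The GATA motif (AGATAA or TGATAA, or either with G as its last letter), present in 25% of windows, had no match in it. Matches of letters describe the window and do not show binding.

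Per length, NLRP1 exceeded CARD8 in all 12 libraries, by a factor that differed between groups. The ratio of NLRP1 to CARD8 was 4.54 ± 0.0995 (SD, n = 3) in mock DMSO, 3.82 ± 0.673 in mock nilotinib, 10.54 ± 0.909 in hemin DMSO and 5.44 ± 2.40 in hemin nilotinib. All 3 hemin DMSO libraries (9.55 to 11.3) lay above every library of the other groups (3.29 to 8.07). These ratios are given as a description and were not tested.

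**Figure D3:**
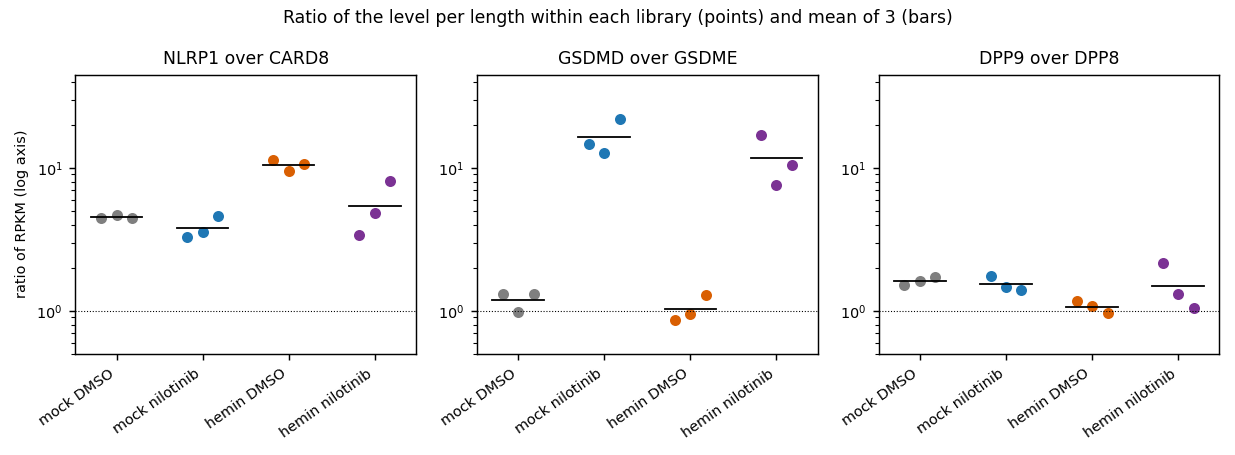
Ratio of RPKM between pairs of members within each library, on a log axis, with points for libraries and bars for the mean of 3. The ratio of NLRP1 to CARD8 is highest in hemin DMSO (9.55 to 11.3), and the ratio of GSDMD to GSDME is near 1 without nilotinib and 7.65 to 21.9 with it.

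DPP8 and DPP9 encode the peptidases that hold both sensors in check. DPP8 (ENSG00000074603, chr15:65442463-65517704, minus strand) hardly varied between the mock DMSO libraries, at 52.2, 52.4 and 52.3 CPM. It measured 45.3 to 49.8 CPM in mock nilotinib, 52.1 to 66.7 CPM in hemin DMSO and 48.8 to 63.8 CPM in hemin nilotinib. Its log2 fold changes lay between -0.12 and 0.22 in the 4 comparisons of groups and none passed (edgeR adjusted p = 0.373 to 0.8).

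DPP9 (ENSG00000142002, chr19:4675224-4724673, minus strand) was 64.6, 69.5 and 73.7 CPM in mock DMSO, 64.4, 58.3 and 56.9 CPM in mock nilotinib, 63.5, 46.6 and 41.3 CPM in hemin DMSO, and 86.3, 57.8 and 54.0 CPM in hemin nilotinib. The hemin DMSO libraries were below the mock DMSO libraries, while hemin nilotinib overlapped every other group. DPP9 fell by 0.46 ± 0.179 on the log2 scale with hemin in DMSO cells (1.37-fold lower, edgeR adjusted p = 0.0405), and with nilotinib its values were 0.39 ± 0.179 with hemin (edgeR adjusted p = 0.0675) and -0.21 ± 0.178 without hemin (edgeR adjusted p = 0.366).

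The fall of DPP9 with hemin was lost without replicate 2 (-0.47) or 3 (-0.46) of mock DMSO or replicate 2 (-0.40) or 3 (-0.32) of hemin DMSO at edgeR adjusted p = 0.0763 to 0.191, with DESeq2 (-0.43, adjusted p = 0.0772) with RLE (-0.41) or upper-quartile (-0.34) scaling, with limma-trend on the FPKM (-0.39 and -0.44, adjusted p = 0.0768 and 0.0684) and under a filter of 10 counts in each of the libraries (-0.42, edgeR adjusted p = 0.0523). Without replicate 1 of hemin DMSO or replicate 3 of hemin nilotinib, the rise with nilotinib in hemin (0.59 and 0.53) and the interaction (0.79 and 0.77) passed, as both did with library totals (0.56, edgeR adjusted p = 0.0102, and 0.80, edgeR adjusted p = 0.0213). The ratio of DPP9 to DPP8 per length was 1.62 ± 0.105 in mock DMSO and 1.07 ± 0.0982 in hemin DMSO, and 1.54 ± 0.18 and 1.504 ± 0.590 in the nilotinib groups.

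PYCARD (ENSG00000103490, chr16:31201485-31203450, minus strand) encodes ASC, the adaptor that NLRP1 needs and CARD8 does not. Its level was 9.19, 8.63 and 6.32 CPM in mock DMSO, 2.13, 3.88 and 2.65 CPM in mock nilotinib, 3.16, 5.81 and 3.30 CPM in hemin DMSO, and 1.41, 2.36 and 1.57 CPM in hemin nilotinib. Every mock DMSO library was above every other library, and hemin nilotinib was below hemin DMSO without overlap.

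Nilotinib lowered PYCARD, which fell by 1.48 ± 0.30 on the log2 scale without hemin (2.79-fold lower, edgeR adjusted p = 0.000826) and by 1.20 ± 0.309 with hemin (2.29-fold lower, edgeR adjusted p = 0.00298). It fell by 0.98 ± 0.294 with hemin alone (1.97-fold lower, edgeR adjusted p = 0.0103), a call lost without replicate 1 (-0.82, edgeR adjusted p = 0.0518) or 3 (-0.83, edgeR adjusted p = 0.0563) of hemin DMSO. With nilotinib present the value for hemin was -0.70 ± 0.310 (edgeR adjusted p = 0.203), and the interaction was 0.28 ± 0.427 (edgeR adjusted p = 0.654).

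Markers of monocytes or macrophages, which express PYCARD, also fell with nilotinib in these libraries. Of the 4 tested, 4 fell with hemin and 2 without, where 31.8% and 21.8% of all genes fell. With hemin in DMSO cells, where PYCARD fell, 2 of the 4 rose and 0 fell, where 25.7% of all genes rose. The summed level of the 6 markers was 26.7 to 38.7 CPM in mock DMSO, 3.88 to 5.05 CPM in mock nilotinib, 31.6 to 46.3 CPM in hemin DMSO and 2.36 to 4.16 CPM in hemin nilotinib, with most of it from LYZ in mock DMSO (mean 31.0 CPM). The 6 lymphocyte markers summed to 8.80 to 19.2, 1.85 to 2.23, 17.5 to 25.8 and 1.58 to 4.49 CPM in the same order of groups. Of the 3 tested, 1 rose with hemin in DMSO cells, and 2 fell with nilotinib in both comparisons. The 4 epithelial markers summed to 61.3 to 65.3, 37.8 to 47.6, 44.6 to 65.7 and 28.2 to 35.9 CPM, and 1 of the 2 tested (EPCAM) fell in both. The part of any of these markers in the falls of PYCARD and GSDME was not tested. Exons of PYCARD-AS1 cover 59.66% of the exon length of PYCARD on the opposite strand, and PYCARD-AS1 itself had 0 to 2 counts per library. Whether the counting used strand is not given in the sources used here, so reads from the pair cannot be told apart. The same holds for DPP9, 18.36% of whose exon length lies opposite DPP9-AS1 (5 to 35 counts per library), and for CARD8, which lies opposite ZSWIM9 (2.42%) and AC011466.1 (2.92%).

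CASP1 (ENSG00000137752, chr11:105025443-105035250, minus strand) encodes caspase-1, the protease that both sensors activate. It had 1 count in replicate 3 of mock nilotinib, 1 in replicate 2 and 1 in replicate 3 of hemin DMSO, and 0 in each of the other 9 libraries. These 3 counts are all that 12 libraries held, the mean was at most 0.0191 CPM in any group, and a difference between groups was not detectable at this depth.

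The coding sequence of CASP1 begins much like that of CARD16, a neighbour that encodes a CARD-only protein. Reads that cover only matching bases could be split between them. The first 270 coding bases of both are 98.89% identical, with 3 substitutions written from CASP1 to CARD16 and counted from 1 at the first coding base (G44A, A109C and G254A). The first 90 coding bases, from a GENCODE 29 transcript of each gene, are shown because they hold the first of these substitutions, with that base in capitals.

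CASP1: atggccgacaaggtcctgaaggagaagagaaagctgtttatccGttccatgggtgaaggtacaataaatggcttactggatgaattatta
CARD16: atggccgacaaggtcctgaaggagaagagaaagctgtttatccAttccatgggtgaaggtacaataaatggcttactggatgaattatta

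The longest identical run between the transcripts was 144 bases, shorter than the 150-base reads. No 150-base word of CASP1 or of any other member occurred in a transcript of another gene. CARD16 had at most 3 counts in any library, so adding it to CASP1 leaves the sum near 0. Of the 5 CARD-only and PYRIN-only genes, CARD18 alone passed the filter, at group means of 3.07 to 4.30 CPM, and it did not pass in any comparison.

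CASP4 (ENSG00000196954, chr11:104942866-104969436, minus strand), the lipopolysaccharide-sensing caspase, had 19, 9 and 14 counts in mock DMSO, 7, 6 and 19 in mock nilotinib, 1, 3 and 5 in hemin DMSO, and 5, 22 and 11 in hemin nilotinib. As CPM, hemin DMSO was lowest (0.0306 to 0.127 CPM) and hemin nilotinib did not overlap it (0.144 to 0.604 CPM). CASP4 rose by 1.92 ± 0.709 on the log2 scale with nilotinib in hemin (3.78-fold, edgeR adjusted p = 0.0262).

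The call of CASP4 rests on these few counts. It was lost without replicate 1 (1.55, edgeR adjusted p = 0.0964) or 2 (1.99, edgeR adjusted p = 0.057) of hemin DMSO or replicate 2 of hemin nilotinib (1.20, edgeR adjusted p = 0.187), and with limma-trend on log2 of the deposited FPKM plus 1 (0.05, adjusted p = 0.195) or plus 0.1 (0.36, adjusted p = 0.0941). For hemin in DMSO cells the value was -1.65 ± 0.706 (edgeR adjusted p = 0.0588).

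**Figure D4:**
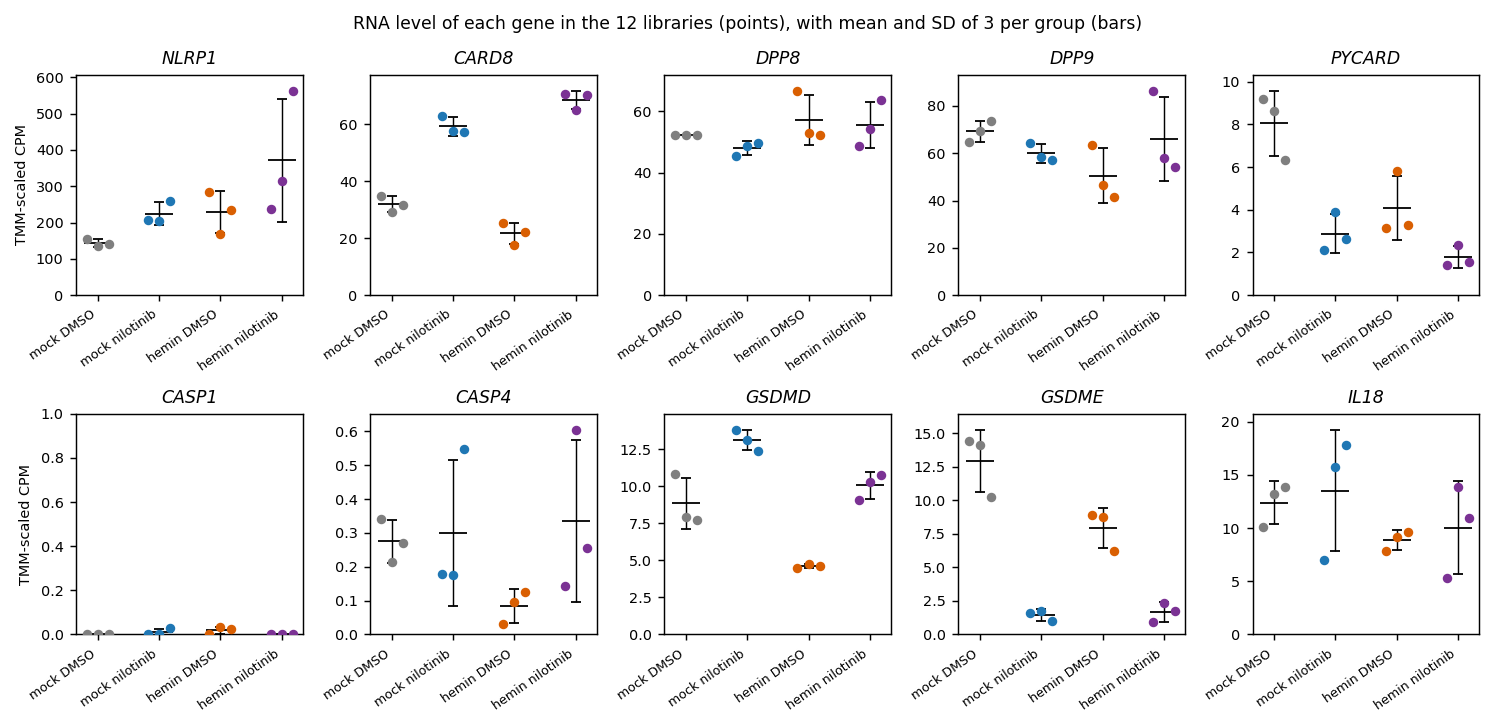
Level of each of the 10 genes in the 12 libraries as TMM-scaled CPM, on axes that start at 0 and differ in scale, with points for libraries and bars for the mean and SD of 3. CARD8 is highest with nilotinib (57.3 to 70.6 CPM), GSDME is lowest with nilotinib (0.920 to 2.33 CPM), and CASP1 stays at or next to 0.

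Gasdermin D, the pore former cut by caspase-1, is encoded by GSDMD (ENSG00000104518, chromosome 8). Its level was 10.8, 7.97 and 7.75 CPM in mock DMSO, 13.8, 13.1 and 12.4 CPM in mock nilotinib, 4.47, 4.79 and 4.64 CPM in hemin DMSO, and 9.08, 10.3 and 10.8 CPM in hemin nilotinib. The hemin DMSO libraries were the lowest and the mock nilotinib libraries the highest, neither overlapping any other group.

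GSDMD rose with nilotinib by 0.57 ± 0.172 on the log2 scale without hemin (1.48-fold, edgeR adjusted p = 0.0142) and by 1.12 ± 0.178 with hemin (2.17-fold, edgeR adjusted p = 4.5e-05). It fell by 0.93 ± 0.177 with hemin in DMSO cells (1.91-fold lower, edgeR adjusted p = 0.000343). The interaction, 0.55 ± 0.246, did not pass (edgeR adjusted p = 0.101), nor did hemin with nilotinib (-0.38 ± 0.172, edgeR adjusted p = 0.21). The rise without hemin was lost without replicate 2 (0.49) or 3 (0.45) of mock DMSO or replicate 2 of mock nilotinib (0.53), at edgeR adjusted p = 0.0571 to 0.0949. It was also lost with every gene that had a count in the fit (0.53, edgeR adjusted p = 0.0643).

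GSDME (ENSG00000105928, chr7:24698351-24758113, minus strand), which encodes the related pore former gasdermin E, went the opposite way to GSDMD with nilotinib. Its level was 14.4, 14.1 and 10.3 CPM in mock DMSO, 1.62, 1.78 and 0.980 CPM in mock nilotinib, 8.92, 8.74 and 6.24 CPM in hemin DMSO, and 0.920, 2.33 and 1.78 CPM in hemin nilotinib. All 6 libraries with nilotinib were below all 6 without it.

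It fell by 3.14 ± 0.314 on the log2 scale with nilotinib without hemin (8.82-fold lower, edgeR adjusted p = 8.0e-07) and by 2.24 ± 0.306 with hemin (4.73-fold lower, edgeR adjusted p = 9.5e-06). Both calls held under every alternative tried. Hemin lowered GSDME in DMSO cells, where it fell by 0.70 ± 0.281 (1.62-fold lower, edgeR adjusted p = 0.0453). That call was lost without any 1 of the 6 libraries but replicate 3 of mock DMSO (-0.78 to -0.53, edgeR adjusted p = 0.0613 to 0.181), and with RLE (-0.66) or upper-quartile (-0.59) scaling. A filter of 10 counts in each of the libraries (-0.67, edgeR adjusted p = 0.0602) and limma-trend on log2 of the FPKM plus 0.1 (-0.61, adjusted p = 0.069) lost it too. The interaction was 0.90 ± 0.423 (edgeR adjusted p = 0.12) and passed without replicate 1 of hemin nilotinib (1.20, edgeR adjusted p = 0.0156).

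The ratio of GSDMD to GSDME per length differed widely with nilotinib. It was 1.19 ± 0.190 in mock DMSO and 1.03 ± 0.222 in hemin DMSO, against 16.5 ± 4.83 in mock nilotinib and 11.7 ± 4.83 in hemin nilotinib (SD, n = 3). Libraries with nilotinib (7.65 to 21.9) did not overlap those without it (0.867 to 1.30).

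PYCARD and GSDME are the members that fell with nilotinib both with and without hemin, and their promoters are shown for that reason. RefSeq (GRCh38.p14) gives 1 start for each, at chr16:31202711-31203010 for PYCARD and chr7:24757415-24757714 for GSDME, both on the minus strand and read 5′ to 3′. Unlike the start of the CARD8 window, these lie inside the annotated gene, by 690 bases for PYCARD and 649 bases for GSDME. Neither window held a match to the GATA, STAT or ETS letters, so neither has capitals.

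PYCARD: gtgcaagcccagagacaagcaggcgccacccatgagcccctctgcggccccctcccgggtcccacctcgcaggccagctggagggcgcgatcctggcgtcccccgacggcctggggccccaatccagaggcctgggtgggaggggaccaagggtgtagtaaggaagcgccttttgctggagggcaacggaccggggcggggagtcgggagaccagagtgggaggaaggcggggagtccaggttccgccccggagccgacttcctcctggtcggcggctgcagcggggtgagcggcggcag
GSDME: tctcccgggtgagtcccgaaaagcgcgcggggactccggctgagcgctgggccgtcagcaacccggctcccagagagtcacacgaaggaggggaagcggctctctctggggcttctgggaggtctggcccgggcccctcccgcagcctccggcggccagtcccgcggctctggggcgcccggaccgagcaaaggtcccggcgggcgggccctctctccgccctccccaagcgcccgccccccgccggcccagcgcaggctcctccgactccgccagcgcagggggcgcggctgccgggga

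Both were rich in GC, at 72.0% in PYCARD and 77% in GSDME, above the upper quartile of 68.0% over all windows. PYCARD held 23 CpG and GSDME 35, against quartiles of 4 and 28. The CARD8 window above lay at the other end of GC content only, since its 5 CpG and the 23 of PYCARD were both between the quartiles. Promoters were also found for DPP8, DPP9 and CASP4, and 6 of the 10 genes were matched in all. The ETS letters also matched in windows of DPP8 and DPP9, which did not pass with nilotinib. The CASP4 window, at 39.7% GC and 3 CpG, was close to that of CARD8 and held no ETS or STAT match.

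IL18 (ENSG00000150782, chr11:112143251-112164117, minus strand) encodes the cytokine precursor that caspase-1 matures. Its level was 10.1, 13.2 and 13.8 CPM in mock DMSO, 7.03, 15.7 and 17.8 CPM in mock nilotinib, 7.81, 9.13 and 9.66 CPM in hemin DMSO, and 5.29, 13.9 and 10.9 CPM in hemin nilotinib. Replicate 1 was the lowest library in every group, and in both nilotinib groups it lay far below the other libraries.

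None of the comparisons of IL18 passed in the edgeR test. The log2 fold changes with nilotinib were 0.13 ± 0.319 without hemin and 0.18 ± 0.324 with hemin, and those with hemin were -0.48 ± 0.322 without and -0.43 ± 0.322 with nilotinib (edgeR adjusted p = 0.224 to 0.781). The interaction was 0.05 ± 0.455 (edgeR adjusted p = 0.945). For hemin without nilotinib, where the groups did not overlap, the fall passed with every gene that had a count in the fit (-0.55, edgeR adjusted p = 0.0316) and in the 6 libraries alone (-0.44, edgeR adjusted p = 0.0433).

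Other genes of the pathway were taken as lists, whose counts are read against the shares of all genes given above. Of 7 kinases upstream of NLRP1, 6 were tested, and 4 rose and 0 fell with nilotinib in hemin. The median log2 fold change of the 6 was 0.86, against 0.02 over all genes. Other pathway lists had medians from -1.60 (other gasdermins and membrane rupture) and -0.88 (other caspases) to 0.33 (CARD-only and PYRIN-only, 1 gene tested). The 4 kinases that rose were MAPK14 (p38 alpha; 2.24 ± 0.131, edgeR adjusted p = 1.0e-09), MAP2K3, which activates p38, MAPK12 (p38 gamma) and MAP3K20 (ZAK; 0.82 ± 0.123, edgeR adjusted p = 2.3e-05). Without hemin 3 rose, from MAP2K3 (1.69 ± 0.222, edgeR adjusted p = 1.5e-05) to MAP3K20 (0.62 ± 0.122, edgeR adjusted p = 0.000665), and 0 fell. MAP3K20 levels were 58.2, 89.4, 49.8 and 88.2 CPM (means of both mock groups, DMSO first, and then of both hemin groups). With hemin in DMSO cells 1 rose (MAP2K3, 0.60) and 3 fell, MAPK14 the most (-1.38 ± 0.128, edgeR adjusted p = 3.5e-07).

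Among 14 other inflammasome sensors and related sensors, NOD1 and NOD2 being of the latter, 8 were tested. With nilotinib in hemin 1 rose, NOD1 (1.26 ± 0.178, edgeR adjusted p = 1.3e-05), a sensor of bacterial peptidoglycan, and 2 fell, NLRP3 (-2.63 ± 0.502, edgeR adjusted p = 0.000257) and MEFV. NLRP3, the sensor of membrane and ion stress, had a highest group mean of 0.843 CPM, in hemin DMSO, with 20 to 34 counts per library, against 1 to 7 counts in every library of the other groups. It rose with hemin in DMSO cells, from 1 to 2 counts per mock DMSO library (edgeR adjusted p = 9.4e-06). Without hemin 0 rose and 2 fell with nilotinib, NLRP6 (-0.76 ± 0.240, edgeR adjusted p = 0.0175) and NLRP2 (-0.43 ± 0.150, edgeR adjusted p = 0.0303).

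The DPP4 family and partners of the sensors had 8 of 11 genes tested. With nilotinib in hemin 1 rose and 3 fell, the rise being DPP6, which went from 2 to 3 counts per hemin DMSO library to 43 to 89 per hemin nilotinib library, and the falls running from TXN (-0.96), thioredoxin, a binding partner of NLRP1, to XPNPEP1 (-0.43 ± 0.132, edgeR adjusted p = 0.00961). Hemin in DMSO cells raised 4 and lowered 0 of them, with TXN rising most (1.43 ± 0.120, edgeR adjusted p = 1.4e-07). TXN was also the 1 gene of this list that hemin changed in nilotinib-treated cells (0.98 ± 0.120, edgeR adjusted p = 0.000509).

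Of 9 other caspases, 8 were tested, and CASP5, which belongs with CASP1 and CASP4, was at 0 in every group. All 8 passed the test for nilotinib in hemin, where 32.4% of all genes rose and 31.8% fell, 3 rising (CASP2, CASP6 and CASP9) and 5 falling (CASP8, CASP10 and CASP14 among them), and all 8 passed for hemin in DMSO cells, 5 rising and 3 falling, where 25.7% of all genes rose and 27.8% fell. Without hemin, 2 passed for nilotinib, CASP8 (-0.59 ± 0.148, edgeR adjusted p = 0.0045) and CASP14. CASP14 had 2 to 6 counts in the mock DMSO libraries and 0 in each mock nilotinib library, and with the latter set to 3 counts, which a count of 0 allows, its level was not lower.

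Of the 5 other genes of gasdermins and membrane rupture, 4 were tested and all 4 fell with nilotinib in hemin, as did 31.8% of all genes. They were GSDMC (-3.07 ± 0.732, edgeR adjusted p = 0.00164, from 14 to 19 counts per library to 0 to 4), NINJ1 (-1.79), which ruptures membranes after pore formation, PJVK (-1.41) and GSDMB (-0.62 ± 0.250, edgeR adjusted p = 0.0382). Without hemin, NINJ1 fell (-1.19 ± 0.176, edgeR adjusted p = 5.0e-05) and GSDMB rose (0.64 ± 0.248, edgeR adjusted p = 0.0486).

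Cytokines and receptors of the IL-1 family had 8 of 13 genes tested, of which 3 rose and 3 fell with nilotinib in hemin and 2 rose and 5 fell without it. IL18BP, the soluble inhibitor of IL-18, rose in both (1.45 with hemin and 0.58 ± 0.215, edgeR adjusted p = 0.038, without). IL18R1, a chain of the IL-18 receptor, fell in both (-0.93 ± 0.212, edgeR adjusted p = 0.00117, with hemin and -1.58 without). IL36B rose in both and had 0 to 1 counts per hemin DMSO library against 27 to 89 per hemin nilotinib library. IL1B, which encodes pro-IL-1 beta, the other main substrate of caspase-1, rose with nilotinib in hemin (2.09 ± 0.643, edgeR adjusted p = 0.00943) but stayed below 1 CPM, with group means of 0.0995 to 0.425 CPM.

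In the 8 genes of ESCRT-III repair, which seals gasdermin pores, 3 rose and 4 fell with nilotinib in hemin, from CHMP4A (1.75 ± 0.380, edgeR adjusted p = 0.000792) to VPS4A (0.34 ± 0.117, edgeR adjusted p = 0.0189) in size, and without hemin 1 rose and 1 fell. The 10 other regulators had 3 that rose and 3 that fell with hemin, and 2 that rose and 3 that fell without. TXNIP, an inhibitor of thioredoxin, changed most in both, by 3.07 ± 0.449 (edgeR adjusted p = 2.0e-05) and 5.37 ± 0.50 (edgeR adjusted p = 3.9e-07) on the log2 scale.

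**Figure D5:**
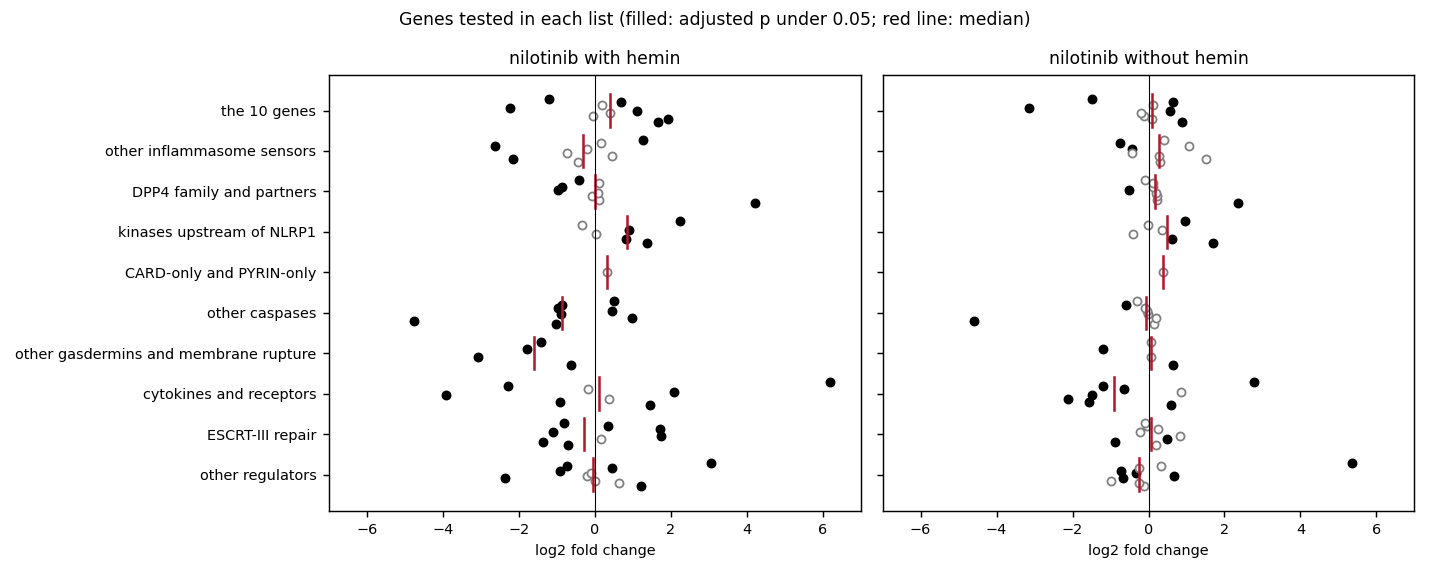
Log2 fold change with nilotinib of every tested gene of the 10 lists, with hemin (left) and without hemin (right), with filled points for an edgeR adjusted p under 0.05 and red lines for the median of a list. The kinases upstream of NLRP1 have 4 filled points above 0 with hemin and none below, and the other gasdermins have 4 below.

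Genes whose log2 CPM ran most like the sensors over the 12 libraries were taken from 14875 genes with a mean of at least 1 CPM. Those nearest to NLRP1 were AC068580.3 (Pearson r = 0.980), AC015971.1 (r = 0.968) and AC126407.1 (r = 0.960). Those nearest to CARD8 were CROCCP2 (r = 0.992), MICALL2 (r = 0.992) and ASB16-AS1 (r = 0.991). The 12 points of each r share the 4 groups and their scaling, and no test was made. CARD8-AS1, on the opposite strand to CARD8, shares 3 bases of exon with it and had means of 15.3 CPM in mock DMSO and 8.87 CPM in mock nilotinib, against 6.65 CPM in hemin DMSO but 9.30 CPM in hemin nilotinib. It fell with nilotinib without hemin (-0.79 ± 0.211, edgeR adjusted p = 0.00668), where CARD8 rose. It fell with hemin in DMSO cells (-1.20 ± 0.214, edgeR adjusted p = 0.000207) and had a positive interaction (1.27 ± 0.301, edgeR adjusted p = 0.00519), both in the direction of CARD8.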

How the data were processed

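Total RNA of K562 cells was sequenced as 150-base paired-end reads, against GRCh38.p12 per the submitters' processing notes. The authors deposited raw counts per gene and FPKM in 2 tables. The deposited FPKM values are the counts per kilobase divided by median-of-ratios size factors. The aligner, counting program and strand setting are not given in the sources used here.

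Counts were fitted in edgeR 4.0.16 (R 4.3.3) with TMM scaling, filterByExpr (minimum count 10, total 15) and 1 mean for each of 4 groups, and tested by quasi-likelihood with Benjamini-Hochberg adjustment over 20821 genes, at a threshold of 0.05. The fit was tested on simulated data. Alternatives used DESeq2 1.42.0, limma 3.58.1 on log2 of the FPKM plus 1 or 0.1, other scalings and filters, a replicate block, and each library left out. The 10 members were taken by name, and members and gene lists were chosen with earlier results of these data known. Pathway genes were named by the largest and smallest change past the threshold in each list, and all for lists of 5 or fewer. Other genes named were chosen after their values were seen.

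Same-numbered libraries correlated at r = 0.199 to 0.263 in their deviations between mock nilotinib and hemin nilotinib, the only pair of groups with all 3 values over 0.1. Gene positions come from GENCODE 29 (GRCh38), and promoters from RefSeq (GRCh38.p14), for 6 of 10 members. Some genes of the lists are not reported here.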

Additional observations from a re-analysis of the deposited data

Results flagged for a closer look

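The effect of nilotinib on CARD8 differed between cells with and without hemin. The difference was 0.77 on the log2 scale (SE 0.192, edgeR quasi-likelihood test of the interaction, adjusted p = 0.00697). The level of CARD8 rose from a mean of 32.0 ± 2.79 CPM (SD, n = 3) to 59.3 ± 3.23 CPM with nilotinib in mock cells, and from 21.7 ± 3.79 to 68.6 ± 3.11 CPM in hemin cells, without overlap in either. The mock and hemin groups also differ in collection time and in the time since nilotinib was added, which cannot be told apart from hemin.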

How the results depend on the processing

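Of 45 tested values of the members, 18 passed, of which 10 passed under every alternative, 8 lost the call under at least 1 and 0 reversed. Of the 27 others, 7 passed under at least 1. The library-total scaling moved the median of all genes to 0.20 (nilotinib with hemin), -0.29 (hemin without nilotinib) and 0.27 (interaction) on the log2 scale, and upper-quartile scaling to 0.11 without hemin. The share of calls that were higher went from 48.0% to 33.9% for hemin without nilotinib, from 60.7% to 49.2% for hemin with nilotinib and from 56.7% to 73.3% for the interaction with library totals, the last to 46.3% with upper quartiles. For hemin with nilotinib, 1208 of all genes passed, against 1987 with every gene that had a count, 741 and 694 with limma on log2 of FPKM plus 1 and plus 0.1, 183 in its 6 libraries alone, 1902 with DESeq2, and 213 to 2793 with 1 library left out, 213 without mock nilotinib replicate 2, 234 without mock nilotinib replicate 3, 286 without hemin nilotinib replicate 2 and 2793 without hemin nilotinib replicate 1. The replicate block, used because the numbers paired these groups, gave 1587 in the 12 libraries and 1600 in the 6 alone, the latter chosen after seeing the data, with 0 members in both.

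With every gene that had a count, 1 member passed for hemin with nilotinib (NLRP1, 0.72, adjusted p = 0.000276), and leaving out 1 library gave 0 to 1. The interaction passed for 3 members with library totals (CARD8, DPP9 and GSDMD), 2 with every gene that had a count, 2 with the replicate block and 1 to 2 with 1 library left out. Members that passed with 1 library left out numbered 4 to 6 for nilotinib with hemin, 3 to 4 without hemin and 2 to 4 for hemin without nilotinib. Under the replicate block DPP9 passed for nilotinib with hemin (0.38, adjusted p = 0.0375) and for the interaction (0.61, adjusted p = 0.0416), as did CASP4 for hemin without nilotinib (-1.76, adjusted p = 0.0487), and no other member call changed. Values that changed sign were all short of the threshold. They were DPP8 with library totals (0.14 for nilotinib with hemin, -0.11 for hemin without nilotinib), CASP4 without hemin under the block (-0.0045), and the interactions of NLRP1 (-9.29e-05 with RLE, -0.046 with upper quartiles, -0.026 and -0.042 with limma), IL18 (-0.00041, -0.060 and, with limma at 0.1, -0.0012) and DPP8 (-0.030 with upper quartiles). With 1 library left out, the values that changed sign were DPP8 (-0.14 to 0.081) and IL18 (-0.13 to 0.49) for nilotinib with hemin, IL18 (-0.15 to 0.44) and CASP4 (-0.67 to 0.38) without hemin, CASP4 (-0.58 to 0.89), GSDME (-0.14 to 0.48) and DPP9 (-0.10 to 0.26) for hemin with nilotinib, and IL18 (-0.24 to 0.37) and NLRP1 (-0.33 to 0.31) for the interaction. The causes were not tested. What can be said of CASP1 and CASP4 is limited by their few counts.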
